A study of Mus musculus with 12 samples.

Results

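The 13 genes described here were higher in both of 2 mouse embryonic fibroblast lines when a death-signalling gene was missing than when it had been put back, and they lie outside the best known interferon-induced gene families by name. They were taken from 55573 genes in the deposited tables, of which 21900 were protein-coding. A gene was chosen when all 3 knockout libraries lay above all 3 put-back libraries in each line, the ratio of mean TPM was 1.5 or more and the knockout mean was 1 TPM or more. TPM is a transcript level scaled for gene length and library size. Of the 9894 protein-coding genes with a knockout mean of 1 TPM or more in both lines, 160 (1.62%) met the pattern in the Fadd line, 139 (1.4%) in the Casp8 line and 31 (0.313%) in both. Symbols of families such as Oas, Ifi, Gbp, H2-, Psm, Tap, Parp, Slfn, Hox and Col were then left out, which removed 18 of the 31. The 13 that remained were Ccnd2, 1500009L16Rik, Tor3a, Ccl5, Rnf227, Ripor2, Cxcl10, Zfpm2, Pabpc1, Syngr1, Gcnt4, Smim3 and Zfp385a. Because the genes were selected on the measured TPM of these libraries, the knockout against put-back values below are a description and carry no test. The opposite pattern, with put-back libraries above knockout libraries by the same limits in both lines, was met by 5 genes.

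The label "non-interferon" did not hold for all of them. Cxcl10, Ccl5 and Tor3a stood on a list of interferon-induced genes, and only their symbols kept them in. The remaining 10 genes are therefore the ones outside that list.

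Total RNA was sequenced from mouse embryonic fibroblasts immortalised with the large T antigen of SV40, untreated and collected 24 h after plating. The Fadd line lacked Fadd and Mlkl (Fadd-/- Mlkl-/-) and carried either an empty vector or FADD. The Casp8 line lacked Casp8 and Mlkl (Casp8-/- Mlkl-/-) and carried either an empty vector or Caspase-8. Each of the 4 groups had 3 cultures described as independent, so p-values measure the spread between cultures. Mlkl was deleted in every group, controls included. Each genotype was represented by a single line, and the sources used here give neither whether it was 1 clone nor which promoter drove the vector. The 2 lines differ in their origin as well as in the deleted gene, and these cannot be told apart.

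FADD is the adaptor that couples death receptors to caspase-8, a protease that can start apoptosis and that restrains necroptosis. MLKL is the membrane-permeabilising effector of necroptosis, so cells without it do not die by that route when FADD or caspase-8 is lost. The 13 genes come from unrelated families: secreted chemokines, a chaperone-like ATPase of the endoplasmic reticulum, RNA-binding and transcription cofactors, a cyclin, and membrane or signalling proteins.

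Library totals ran from 33918359 to 59388559 expected counts. Fadd was at 0.01 to 0.02 TPM in the Fadd knockout libraries and at 3.05 to 4.24 TPM where it was put back. Casp8 was at 3.11 to 3.51 TPM in the Casp8 knockout libraries and at 28.62, 70.8 and 76.48 TPM in put-back replicates 1, 2 and 3. Mlkl transcript was still counted at 1.43 to 6.22 TPM in all 12 libraries. Some libraries stood apart. On the first principal component, with 52.3% of the variance, the Casp8-line replicate 1 libraries lay at 22.3 (knockout) and 36.3 (put back), and the line's other libraries at 81.9 to 103. Fadd knockout replicate 1 had 81.4% of its counts in protein-coding genes and 1.11% in ribosomal RNA, against 85 to 88.8% and 0.362 to 0.753% in the others. Fibroblast markers summed to 1170 to 1720 TPM in the Fadd knockout, 1740 to 1890 TPM with Fadd put back, 2590 to 3250 TPM in the Casp8 knockout and 2510 to 3850 TPM with Casp8 put back, but Thy1 and Lum were at 0 in all 6 Fadd-line libraries and Thy1 in the 3 Casp8 put-back libraries. The 10 leukocyte markers summed to 0.75 to 2.18 TPM, with Cd3e at 0 in every library. The 7 endothelial markers summed to 0.17 TPM at most. Epithelial markers, with Krt5 at 0 in every library, summed to 0.38 to 2.11 TPM in the Fadd knockout and 2.7 to 15.8 TPM with Fadd put back, against 2.33 to 6.63 and 1.68 to 2.4 TPM in the Casp8 line. Neural markers, with Rbfox3, Snap25 and Sox10 at 0 in every library, summed to 4.78 to 5.85 and 5.73 to 7.18 TPM in the Fadd line and to 13.3 to 63.0 and 31.6 to 64.0 TPM in the Casp8 line. The part of these markers in the members' differences was not tested.

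The members' ratios of mean TPM, knockout over put back, had a median of 2.61 in the Fadd line (range 1.61 to 6.74) and of 2.11 in the Casp8 line (range 1.58 to 5.5). Over all 9894 genes at the same floor the median ratios were 0.918 and 0.976. A ratio of 2 or more was reached by 9 of the 13 genes in each line. In the Fadd line the ratio was the larger one for 9 of the 13. Just inside the limit lay Zfp385a, with ratios of 1.69 and 1.58 in the Fadd and Casp8 lines, and Smim3, with 1.61 and 1.64. Just outside it lay Lif, a cytokine gene, with 1.36 and 2.36, and Nanos1, an RNA-binding regulator, with 1.55 and 1.35. These bulk values cannot tell fewer expressing cells from less RNA per cell.

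**Figure D1:**
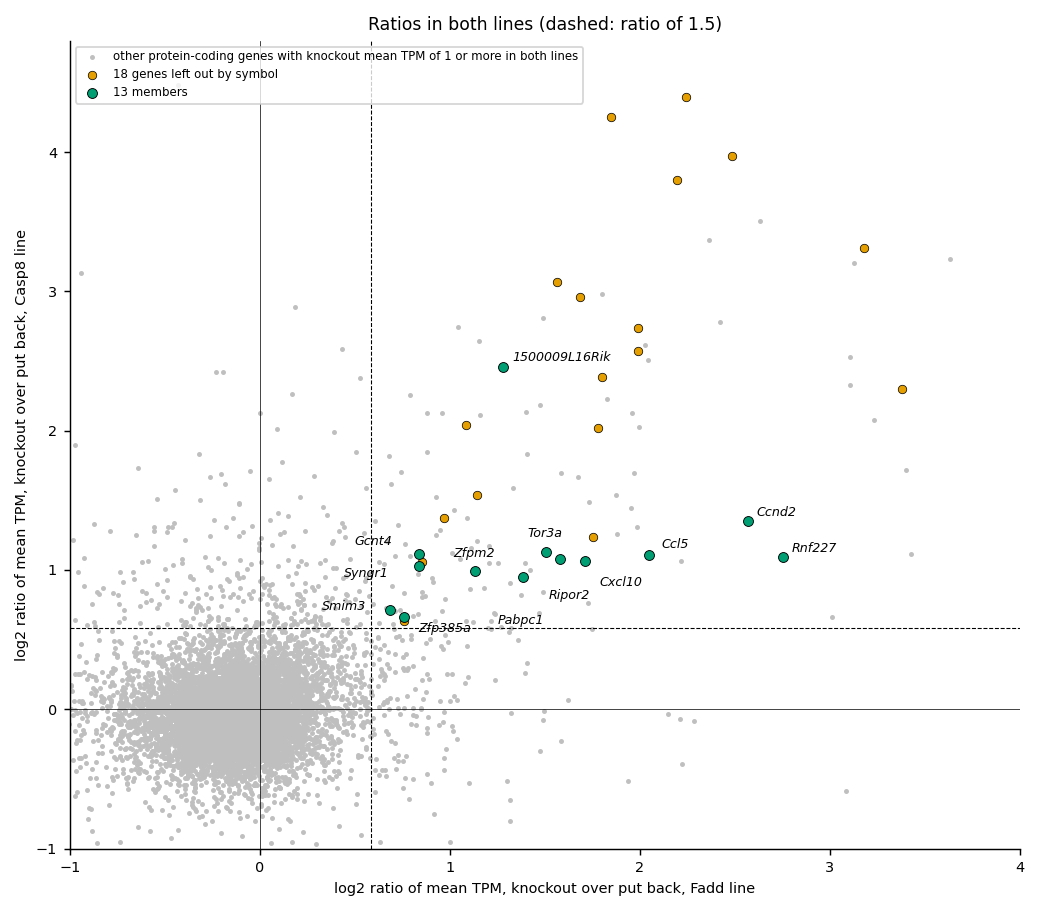
Each point is a protein-coding gene, placed by the log2 ratio of mean TPM (knockout over put back) in the Fadd line (x axis) and the Casp8 line (y axis); the axes show the region around the 13 genes, and genes beyond it are not drawn. The 13 members (green) lie past the dashed ratio of 1.5 on both axes, with Rnf227 and Ccnd2 farthest right and 1500009L16Rik highest, and 18 genes left out by symbol (orange) share that corner.

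The secreted proteins were CXCL10, a chemokine that attracts cells bearing CXCR3, and CCL5, a chemokine that attracts T cells and monocytes. Cxcl10 (chr5:92346638-92348889, minus strand, GRCm38) measured 202.8, 168.10 and 92.48 TPM in the Fadd knockout libraries and 15.87, 79.02 and 46.38 TPM with Fadd put back. In the Casp8 line it measured 20.20, 25.20 and 27.71 TPM without Casp8 and 11.78, 9.50 and 13.71 TPM with it. The groups did not overlap within a line, and the lowest Fadd knockout library was 1.17 times the highest put-back one. The ratio was 3.28 in the Fadd line. It was 4.96 without put-back replicate 2, 2.46 without put-back replicate 1 and 2.08 without both replicate 1 libraries of the line. In the Casp8 line it was 2.09. By pairs of the same replicate number, the Fadd-line ratios were 12.8, 2.13 and 1.99, so the first pair stood far above the others.

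Cxcl10 is a textbook target of interferon and NF-kappaB signalling, and its promoter is shown because it was the only one available here for a listed interferon-induced member. The promoter of Gcnt4, a member outside the list, is shown beside it. RefSeq gave Gcnt4 a pair of start sites. The window shown is the upstream one, chosen because it held STAT and AP-1 matches, and it ends before the GENCODE gene start. The other window (chr13:96924463-96924762), which spans that start, held only GC boxes among the motifs searched. The sequences run from 250 bases before to 50 after the transcription start, are taken from RefSeq on GRCm38.p6, and are written 5′ to 3′ on the gene's strand (Cxcl10, chr5:92348840-92349139, minus; Gcnt4, chr13:96924094-96924393, plus). Capitals mark matches to an interferon-stimulated response element core, a STAT site or an AP-1 site.
Cxcl10: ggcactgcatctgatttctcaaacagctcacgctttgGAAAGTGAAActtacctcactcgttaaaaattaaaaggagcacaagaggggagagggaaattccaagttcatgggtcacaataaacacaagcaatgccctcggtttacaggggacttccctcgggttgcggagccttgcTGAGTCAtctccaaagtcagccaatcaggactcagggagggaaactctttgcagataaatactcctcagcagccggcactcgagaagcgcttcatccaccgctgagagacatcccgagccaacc
Gcnt4: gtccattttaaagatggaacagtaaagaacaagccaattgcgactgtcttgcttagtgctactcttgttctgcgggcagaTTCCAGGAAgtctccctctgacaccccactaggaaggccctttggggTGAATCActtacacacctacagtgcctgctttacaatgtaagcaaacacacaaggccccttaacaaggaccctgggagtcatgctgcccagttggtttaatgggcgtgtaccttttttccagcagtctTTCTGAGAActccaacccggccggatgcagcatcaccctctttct

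RefSeq gave 10 promoters for 6 of the 13 members (Cxcl10, 1500009L16Rik, Ripor2, Gcnt4, Syngr1 and Zfp385a), and each motif was searched on both strands and set beside all 32851 promoters of 300 bases. The interferon-stimulated response element core (TTTC, any 2 bases, TTTC) was in 3.44% of all promoters and in 1 of the 10, that of Cxcl10, starting at position -213 from the start site. The STAT site TTCNNNGAA was in 8.3% of all promoters and in 1 of the 10, where Gcnt4 had 2 matches, starting at -170 and at 5. An AP-1 site, TGANTCA, was in 7.81% of all promoters and in 2 of the 10, at -74 in Cxcl10 and -123 in Gcnt4. The GC box GGGCGG was in 35.7% of all promoters and in 6 of the 10. Neither the NF-kappaB pattern (GGG, any 2 bases, TTTCC, in 1.63% of all promoters) nor the E-box CACGTG (7.15%) had a match in these windows. That NF-kappaB pattern is narrow. It does not match the close variants gggaaattcc and gggacttccc, which stand in the Cxcl10 window shown above. Its lack of matches therefore does not show that these promoters lack NF-kappaB sites. No capitalised matches overlapped one another, and the matches are letters in a window, not measured binding.

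Ccl5 (chr11:83525778-83530518, minus strand) measured 125.2, 25.73 and 41.17 TPM in the Fadd knockout libraries and 9.32, 14.81 and 22.33 TPM with Fadd put back. Its Casp8-line levels were 8.11, 5.26 and 4.30 TPM without Casp8 and 2.75, 1.91 and 3.54 TPM with it. Replicate 1 of the Fadd knockout stood far above the other 2 knockout libraries, and the same-number ratios were 13.4, 1.74 and 1.84. The mean ratio of 4.13 in the Fadd line became 2.16 without Fadd knockout replicate 1 and 1.8 without both replicate 1 libraries of the line. The Casp8-line ratio was 2.15. Of the related genes, Cxcl9 was at a mean of 0.207 TPM or less in every group and Ccl4 was at 0 in all 12 libraries. Cxcr3 had a mean of 0.0667 TPM or less. Ptprc, the pan-leukocyte marker, was at 0 in the Fadd knockout libraries, where Ccl5 was highest, but also in both put-back groups. The 10 leukocyte markers together summed to 0.88 to 1.97 TPM in the Fadd knockout and 1.25 to 2.18 TPM with Fadd put back. Which cells gave the Ccl5 transcript was not tested.

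Tor3a (chr1:156653617-156674356, minus strand) encodes a torsin, an ATPase of the endoplasmic reticulum. It measured 29.21, 8.73 and 7.28 TPM without Fadd and 3.09, 7.10 and 5.75 TPM with Fadd put back. The groups were separated by only 7.28 against 7.10 TPM, and the ratio of 2.84 was 1.51 without knockout replicate 1 and 1.25 without both replicate 1 libraries. The Casp8-line libraries gave 4.68, 7.93 and 8.07 TPM without Casp8 and 3.93, 2.37 and 3.13 TPM with it, a ratio of 2.19. The other torsins, Tor1a, Tor1b, Tor2a and Tor4a, had log2 changes between -0.24 and 0.11 over both lines, and none passed edgeR's test.

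For all 3 listed members the first numbered pair gave the largest Fadd-line ratio. The same held for Rnf227 (8.97, 5.45 and 5.48) and 1500009L16Rik (3.26, 2.97 and 1.46), which stood outside the list. The 18 genes left out by symbol, which included Isg15, Usp18, Tap1 and H2-K1, were all highest in Fadd knockout replicate 1 among the 3 knockout libraries. Of the 13 members, 8 (61.5%) were highest there, against 32.4% of the 9894 genes at the floor. These members included Rnf227, Zfpm2, Syngr1, Zfp385a and 1500009L16Rik, which stood outside the list. The left-out genes' mean level on the log2(TPM + 1) scale was 6.0, 4.57 and 4.81 in the Fadd knockout libraries and 2.77, 3.74 and 4.01 with Fadd put back. In the Casp8 line it was 2.13, 3.18 and 3.27 without Casp8 and 1.74, 1.2 and 1.41 with it. What part this library's lower protein-coding share had in these ratios was not tested.

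**Figure D2:**
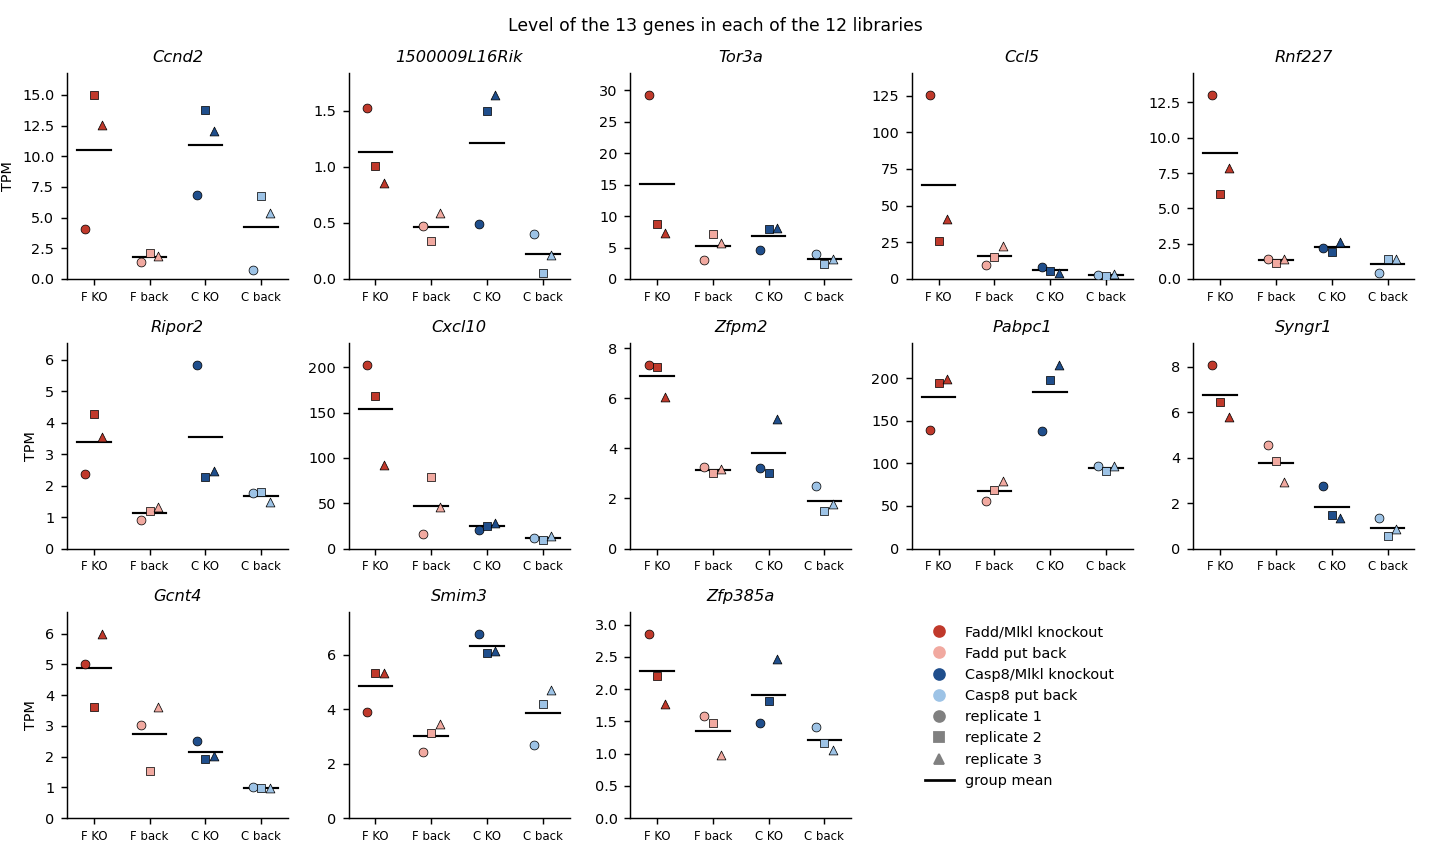
Each panel plots 1 of the 13 genes in TPM (y axis, from 0), with the 4 groups along the x axis (F, Fadd line; C, Casp8 line; KO, knockout; back, gene put back), a point per library shaped by replicate number, and a bar at the group mean. Cxcl10, Ccl5 and Tor3a have their highest point in Fadd knockout replicate 1 (202.8, 125.2 and 29.21 TPM), as do Rnf227, Syngr1, Zfpm2 and Zfp385a. Ccnd2 and Pabpc1 have their lowest knockout points in replicate 1 of both lines.

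Among the genes that act on RNA and transcription, Pabpc1 had the highest level. It encodes the main cytoplasmic poly(A)-binding protein, which coats mRNA tails and helps translation and mRNA stability. Pabpc1 (chr15:36595661-36609668, minus strand) measured 139.2, 194.6 and 199.3 TPM without Fadd and 55.27, 69.34 and 79.52 TPM with Fadd put back. The Casp8 line gave 137.7, 197.5 and 215.9 TPM without Casp8 and 96.75, 91.29 and 97.15 TPM with it. Every knockout library of either line lay above every put-back library of either line, and the lowest knockout library was 1.75 (Fadd) and 1.42 (Casp8) times the highest put-back library of its line. The ratio was 2.61 in the Fadd line, with pairs at 2.52, 2.81 and 2.51, and 1.93 in the Casp8 line, with pairs at 1.42, 2.16 and 2.22. Its relative Pabpc4 did not share the pattern, with log2 changes of 0.06 (SE 0.47) and 0.19 (SE 0.47) and adjusted p = 1.0 and 0.999 by edgeR. The partners Paip1, Paip2, Eif4g1 and Eif4e had log2 changes from -0.19 to 0.31, none of which passed. Pabpc1 has near-identical processed copies in the genome, and reads shared with them make its level uncertain.

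Zfpm2 (chr15:40655035-41104592, plus strand) encodes FOG2, a cofactor that binds GATA factors. It measured 7.34, 7.26 and 6.05 TPM without Fadd and 3.24, 3.02 and 3.18 TPM with Fadd put back, so the Fadd-line groups were tight and well separated. Casp8-line levels were 3.22, 3.02 and 5.18 TPM without Casp8 and 2.48, 1.48 and 1.77 TPM with it. The ratios were 2.19 and 1.99, and 2.15 in the Fadd line without its replicate 1 libraries. Zfpm2 overlaps 3 short same-strand genes of unproven status, which could share its reads. The GATA factor Gata4 averaged 1.0 TPM in the Fadd knockout and 0.177 TPM in the Casp8 knockout, and neither it nor Gata2, Gata3, Gata6 or Zfpm1 passed edgeR's test in either line. Zfp385a (chr15:103313895-103340093, minus strand), a zinc finger protein that binds RNA and works with p53, ranged from 1.77 to 2.85 TPM without Fadd and from 0.98 to 1.58 TPM with it. Its Casp8-line groups almost met, with 1.47 TPM as the lowest knockout value and 1.42 TPM as the highest put-back value.

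Ccnd2 (chr6:127125162-127152193, minus strand) encodes cyclin D2, which activates CDK4 and CDK6 at the start of the cell cycle. It measured 4.09, 14.97 and 12.57 TPM without Fadd and 1.38, 2.08 and 1.87 TPM with Fadd put back. Levels in the Casp8 line were 6.82, 13.79 and 12.09 TPM without Casp8 and 0.71, 6.74 and 5.37 TPM with it. The Casp8-line groups were separated by only 6.82 against 6.74 TPM, knockout replicate 1 against put-back replicate 2. Within numbered pairs the ratios were 9.61, 2.05 and 2.25 in the Casp8 line and 2.96, 7.2 and 6.72 in the Fadd line. The mean ratio was 5.93 in the Fadd line and 6.97 without its replicate 1 libraries. Leaving these libraries out lowered the ratios of the listed interferon-induced members and of Rnf227, 1500009L16Rik, Zfpm2 and Zfp385a.

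Of the other D-type cyclins, Ccnd1 varied too widely between cultures to compare, at 17.7 ± 10.3 TPM (SD, n = 3) without Fadd and 15.7 ± 19.7 TPM (SD, n = 3) without Casp8. Ccnd3 lay at means of 22.7 to 24.5 TPM in the 4 groups, with log2 changes of 0.04 and 0.11 that did not pass. Over the 36 cell cycle genes tested, Ccnd2 included, the median log2 change was -0.04 in the Fadd line and 0.01 in the Casp8 line, with 13 and 19 genes above 0. By edgeR none rose in either line, and 1 fell, in the Fadd line: Cdkn1c, an inhibitor of cyclin-dependent kinases, named after its value was seen. At an unadjusted p below 0.05 there were 4 and 2 of the 36, beside 1682 and 930 of all 16396 genes. DESeq2 called 3 in the Fadd line, of which 1 rose, the member Ccnd2, and 2 fell, Cdkn1c and Cdkn2b. It called 0 in the Casp8 line, and limma-voom called 0 in both.

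Rnf227 (chr11:69340461-69342641, plus strand) encodes a RING finger protein, a class that includes many ubiquitin ligases. It had the largest Fadd-line ratio of the 13, 6.74. The libraries measured 13, 5.99 and 7.83 TPM without Fadd and 1.45, 1.10 and 1.43 TPM with it, so the lowest knockout library was 4.13 times the highest put-back one. In the Casp8 line it measured 2.21, 1.93 and 2.64 TPM without Casp8 and 0.39, 1.38 and 1.41 TPM with it, a ratio of 2.13 that was 1.62 without put-back replicate 1. The Fadd-line ratio did not rest on 1 pair: the numbered pairs stood at 8.97, 5.45 and 5.48.

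The next members have roles in signalling or at membranes. Ripor2 (chr13:24582189-24733816, plus strand), an inhibitor of RhoA, measured 2.36, 4.27 and 3.54 TPM without Fadd and 0.90, 1.18 and 1.32 TPM with it. Its levels in the Casp8 line were 5.84, 2.27 and 2.48 TPM without Casp8 and 1.76, 1.80 and 1.47 TPM with it. Knockout replicate 1 carried that second ratio of 2.11, which was 1.42 without it. The relatives Ripor1 and Ripor3, and Rhoa, Rhob and Rhoc, did not pass edgeR's test in either line.

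Gcnt4 (chr13:96924689-96950906, plus strand) adds branches to O-linked glycans. It measured 5.02, 3.61 and 5.98 TPM without Fadd and 3.04, 1.52 and 3.60 TPM with it, so the Fadd-line groups touched at 3.61 against 3.60 TPM. The Casp8 line was cleaner, at 2.51, 1.91 and 2.02 TPM without Casp8 and 1.01, 0.98 and 0.98 TPM with it. Gcnt1, a gene of the same family, fell in the Fadd line from a mean of 0.47 to 0.0167 TPM. Its log2 change was -4.97 (SE 0.78, adjusted p = 0.00851 by edgeR), in that line the opposite direction from Gcnt4. Without Fadd knockout replicate 2 or 3 the adjusted p was 0.0621 or 0.0604, and 0.0569 without both Fadd-line replicate 1 libraries. In the Casp8 line Gcnt1 went the same way as Gcnt4, with means of 0.3 TPM without Casp8 and 0.107 TPM with it. That log2 change of 1.65 (SE 0.66) did not pass (adjusted p = 0.787 by edgeR). Gcnt1 was 1 of 37 tested relatives of the members, chosen after the members were known, and no other relative passed by edgeR in either line. DESeq2 also called Cdkn2b, an inhibitor of CDK4 and CDK6, in the Fadd line, where edgeR gave a log2 change of -0.66 (SE 0.18, adjusted p = 0.118).

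Syngr1 (chr15:80091334-80119501, plus strand) encodes synaptogyrin 1, a vesicle membrane protein. It measured 8.08, 6.45 and 5.77 TPM without Fadd and 4.57, 3.86 and 2.92 TPM with it. The Casp8-line levels were lower, at 2.73, 1.46 and 1.35 TPM without Casp8 and 1.33, 0.53 and 0.86 TPM with it. Its Casp8-line groups were separated by 1.35 against 1.33 TPM, and Syngr1 was the member that no longer met the rule with either CPM or FPKM in place of TPM. It overlaps the ribosomal protein gene Rpl3 on the opposite strand. The library kit kept strand, but no source used here gives the strand setting of the counting. Cxcl10 (with Art3), Ccnd2, Ripor2 and Gcnt4 also overlap genes on the opposite strand.

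Smim3 (chr18:60474191-60501987, minus strand), a small membrane protein, ranged from 3.90 to 5.33 TPM without Fadd and 2.44 to 3.46 TPM with it. Without Casp8 it ranged from 6.04 to 6.74 TPM, above its put-back range of 2.67 to 4.68 TPM. The gene 1500009L16Rik (chr10:83722865-83762762, plus strand) was the least expressed member, with 5 to 133 counts per library. It measured 1.53, 1.01 and 0.86 TPM without Fadd and 0.47, 0.34 and 0.59 TPM with it. The Casp8 line gave 0.49, 1.5 and 1.64 TPM without Casp8 and 0.40, 0.05 and 0.21 TPM with it, where the first pair differed little and the lowest library held 5 counts. The ratio of 5.5 in that line was 3.97 without put-back replicate 2, 9.31 without put-back replicate 1 and 12.1 without both replicate 1 libraries.

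**Figure D3:**
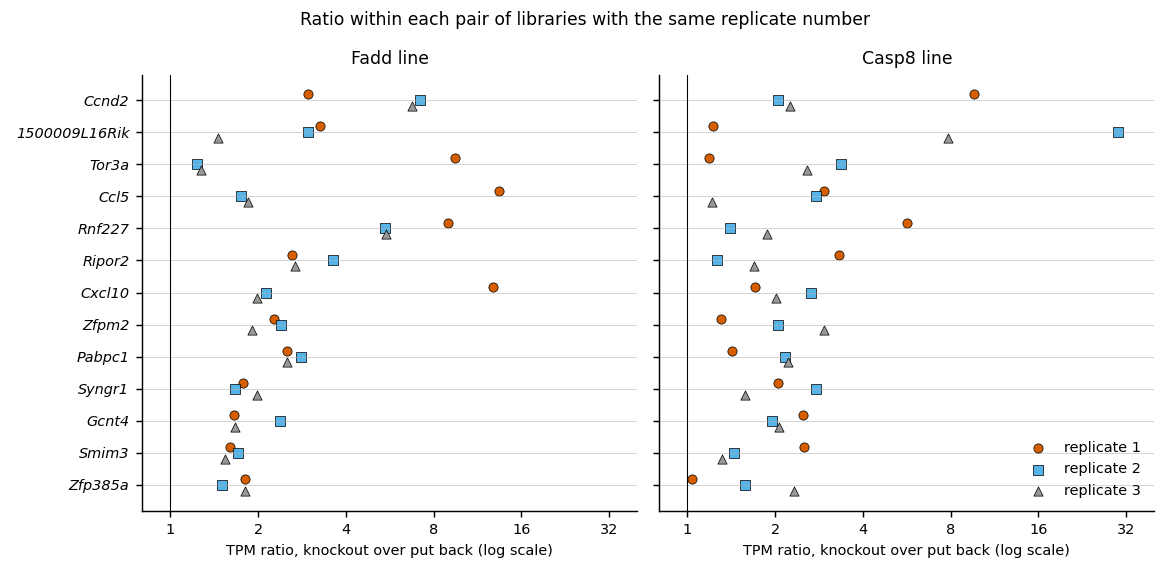
Each point is the TPM ratio, knockout over put back (x axis, log scale), within a pair of libraries with the same replicate number, for the 13 genes (y axis) in the Fadd line (left) and the Casp8 line (right). The rule fixes that all pairs lie above 1; in the Fadd line Ccl5, Cxcl10 and Tor3a have 1 pair far to the right (13.4, 12.8 and 9.45), whereas Pabpc1 and Zfpm2 have pairs close together.

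The rule itself puts every numbered pair above 1 in both lines, so only the spread of the pair ratios is informative. With the replicate 1 libraries of a line left out, 10 of the 13 kept a ratio of 1.5 or more in both lines. The exceptions were Tor3a (1.25 in the Fadd line), Ripor2 (1.45 in the Casp8 line) and Smim3 (1.37 in the Casp8 line). In edgeR's test over 16396 genes, 250 genes (1.52%) passed between Fadd knockout and put back, 47 of them (0.287%) higher in the knockout. Between Casp8 knockout and put back 1 gene (0.0061%) passed, Casp8 itself, which was lower in the knockout. Among the 9894 genes at the floor, 22 (0.222%) passed as higher in the Fadd knockout. Pabpc1, Zfpm2 and Rnf227 were the 3 members that passed in the Fadd line. No member passed in the Casp8 line, where 10 members and 930 of all 16396 genes had an unadjusted p below 0.05. DESeq2 called 10 members among 697 genes in the Fadd line and 3 among 143 genes in the Casp8 line. With limma-voom there were 3 members among 200 genes and 0 members with 1 gene called. With a replicate block within each line the genes called were 444 and 6 and the members 4 and 0. Nothing is read from these counts, since the same contrasts chose the genes.

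Lists of related pathways were set beside the members. The 93 tested interferon-induced genes outside the left-out symbols, Cxcl10, Ccl5 and Tor3a included, had a median log2 change of 1.25 in the Fadd line, with 89 above 0, and of 1.09 in the Casp8 line, with 79 above 0. Over all 16396 genes the medians were 0.0 and 0.01, with 8289 and 8359 above 0 and 1682 and 930 at an unadjusted p below 0.05. None of the 93 passed in either line by edgeR or limma-voom, while 58 and 36 had an unadjusted p below 0.05. DESeq2 called 23 of them in the Fadd line, 22 higher and 1 lower, and 6 in the Casp8 line, all higher. The 36 tested NF-kappaB, cytokine and chemokine genes had medians of 0.51 and 0.65, with 30 and 32 above 0. Again edgeR and limma-voom called none, with 9 and 12 of the 36 at an unadjusted p below 0.05 (1682 and 930 of 16396 over all genes), and DESeq2 called 2 and 4. With the replicate block within each line, Nfkb2 rose in the Fadd line.

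The rule did not compare the members' levels between the lines, and here edgeR gave a test. The rule did ask for all knockout libraries above all put-back ones, which favours genes with little spread within groups. Such genes pass more easily, so the members' counts and the shares over all genes are not a like comparison. Between the 2 knockout groups, 1718 of 16396 genes (10.5%) passed, 568 of them (3.46%) higher in the Fadd line. Of the 13 members 6 passed, all higher in the Fadd line: Ccl5, Cxcl10, Syngr1, Rnf227, Gcnt4 and Zfpm2. Between the 2 put-back groups 1039 genes (6.34%) passed, 481 (2.93%) higher in the Fadd line. There 5 members passed, all higher in the Fadd line: the same genes without Rnf227. Among the 9894 genes at the floor, 2.67% and 2.14% passed as higher in the Fadd line.

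Ccl5 differed most between the knockout groups, by 3.65 on the log2 scale (SE 0.62, adjusted p = 0.00416), and by 2.58 between the put-back groups (SE 0.60, adjusted p = 0.0313). Without Fadd knockout replicate 1 the knockout difference was 2.65. All its Fadd-line libraries, put back included, lay at 9.32 TPM or more, above every Casp8-line library, of which the highest was 8.11 TPM. Cxcl10 differed by 2.87 between the knockout groups (SE 0.51, adjusted p = 0.00518) and by 2.13 between the put-back groups (SE 0.49, adjusted p = 0.0304). Syngr1 differed by 2.30 (SE 0.51, adjusted p = 0.0153) and 2.36 (SE 0.51, adjusted p = 0.0237), and its put-back libraries in the Fadd line, at 2.92 TPM or more, also lay above all knockout libraries of the Casp8 line. Gcnt4 differed by 1.36 (SE 0.31, adjusted p = 0.018) and 1.53 (SE 0.31, adjusted p = 0.0182). Zfpm2 differed by 1.09 (SE 0.18, adjusted p = 0.00386) and 0.79 (SE 0.18, adjusted p = 0.0302). For these 5 genes no library of the Casp8 line reached its Fadd-line counterpart group, in knockout or in put back.

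Rnf227 was set apart. Between the knockout groups it differed by 2.12 (SE 0.45, adjusted p = 0.0133), and between the put-back groups by 0.23 (SE 0.44, adjusted p = 0.834), with overlapping ranges of 1.10 to 1.45 and 0.39 to 1.41 TPM. The difference of changes is built from the contrasts that chose the genes, so its values for members come from selected changes and support nothing on their own. For Rnf227 the change in the Fadd line exceeded that in the Casp8 line by 1.90 on the log2 scale (SE 0.62), which did not pass after adjustment (adjusted p = 0.366, unadjusted p = 0.0112, by edgeR). Without Casp8 put-back replicate 1 the difference was 2.34 (adjusted p = 0.0341), and without both Casp8-line replicate 1 libraries 2.32 (adjusted p = 0.0304). For this difference of changes 138 genes (0.842%) passed. The signed change was higher in the Fadd line for 9 of them (0.0549%) and lower for 129. A lower signed change can be a larger fall in the Fadd line. Among the 9894 genes at the floor, 5 (0.0505%) passed as higher. No member passed, by edgeR, DESeq2 or limma-voom, with Rnf227 the 1 member at an unadjusted p below 0.05. With the replicate block within each line 239 genes and no member passed.

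The other 7 members did not pass between the lines. Pabpc1 differed by 0.15 (SE 0.21, adjusted p = 0.73) between the knockout groups and by -0.42 (SE 0.21, adjusted p = 0.279) between the put-back groups. Smim3, Ripor2 and Zfp385a differed by -0.19 (SE 0.23), 0.15 (SE 0.38) and 0.46 (SE 0.27) between the knockout groups. Tor3a differed by 1.35 there (SE 0.52, adjusted p = 0.128), with Fadd knockout replicate 1 alone far above the Casp8 knockout range. Ccnd2 differed by -0.16 (SE 0.67) between the knockout groups and by -1.31 (SE 0.68, adjusted p = 0.306) between the put-back groups. Without Casp8 put-back replicate 1 that second difference was -1.82 (adjusted p = 0.0307). The gene 1500009L16Rik differed by -0.12 (SE 0.59) between the knockout groups and by 0.83 (SE 0.63) between the put-back groups, the latter 1.76 (adjusted p = 0.0358) without both Casp8-line replicate 1 libraries.

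These calls depended on single libraries, except for 3 between the knockout groups. Between the knockout groups Ccl5, Cxcl10 and Zfpm2 passed in all 20 alternatives, with adjusted p of 0.0274 at most. Gcnt4 was lost in 5, Syngr1 in 4 and Rnf227 in 3. Leaving out Casp8 knockout replicate 2 or 3 left 3 members called, leaving out Fadd knockout replicate 1 left 4, and leaving out both Fadd-line replicate 1 libraries left 3. The calls over all genes, 1718 with every library, fell as well. They were 829 and 866 without Casp8 knockout replicate 2 and 3, and 1074 without Fadd knockout replicate 1. Without both Fadd-line replicate 1 libraries they were 1201. Between the put-back groups each of the 5 genes was lost in 5 to 8 alternatives. Without Casp8 put-back replicate 2 or 3 no member passed by edgeR (5 at an unadjusted p below 0.05). Without Fadd put-back replicate 2 or 3 there was 1, and without Fadd put-back replicate 1 there were 2. Over all genes the put-back calls fell from 1039 to 301 and 319 without Casp8 put-back replicate 2 and 3. They were 348, 526 and 470 without Fadd put-back replicate 2, 3 and 1.

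**Figure D4:**
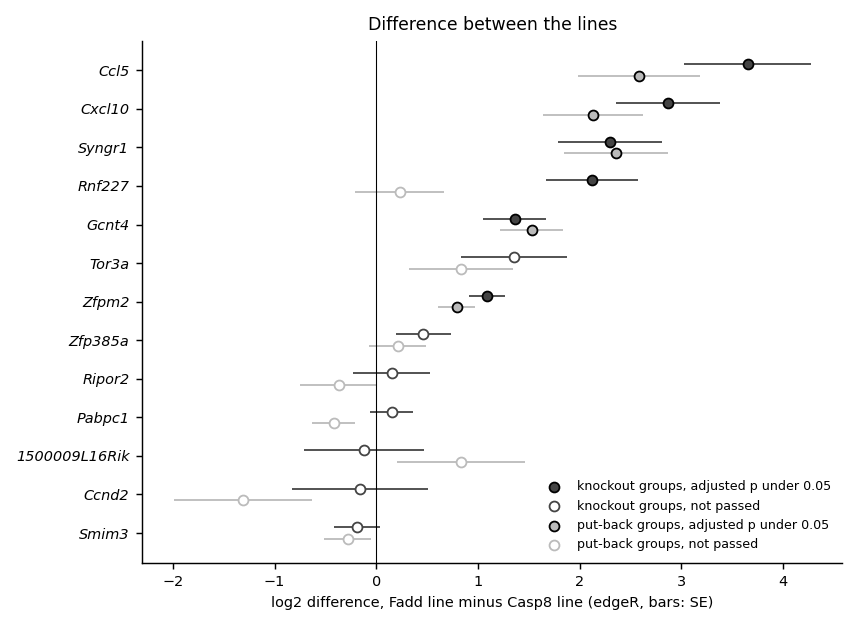
Log2 difference between the lines (Fadd line minus Casp8 line, edgeR, x axis) for the 13 genes (y axis), between the knockout groups (dark) and between the put-back groups (grey), with bars for the standard error; filled points have an adjusted p below 0.05. Ccl5 lies farthest right (3.65 and 2.58), Rnf227 is filled for the knockout groups only, and Pabpc1, Ripor2 and Smim3 lie near 0.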

How the data were processed

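RNA from 12 cultures (4 groups of 3) was sequenced with a stranded total-RNA kit. Per the labels' protocols and the submitters' processing notes, the authors trimmed reads with Trim Galore 0.5.0, aligned them with STAR 2.7.5a to mm10 with the GENCODE M22 annotation, and counted genes with RSEM. The deposited tables give RSEM's expected counts, TPM and FPKM per gene and library. No source used here gives the strand setting.

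The members and gene lists were chosen with earlier results of these data known. Members were found by their rule on the deposited TPM. The members described individually were all 13, which covers the rule for named genes (largest ratios, highest levels, those near the ratio limit, called and listed members); relatives of members were added afterwards. Expected counts were rounded, and 92 spike-in controls with no counts were left out. Tests used edgeR 4.0.16 (quasi-likelihood, TMM, filterByExpr with a minimum count of 10, all 12 libraries, 1 mean per group, Benjamini-Hochberg over 16396 genes, adjusted p below 0.05) in R 4.3.3, checked on simulated counts. Log2 changes are edgeR's unless called TPM ratios. Standard errors were derived from its output, as the absolute log2 change divided by the square root of the test's F statistic. Alternatives were DESeq2 1.42.0, limma-voom 3.58.1, other scaling and filters, replicate blocks, CPM or FPKM in place of TPM, other rule limits and leaving out libraries. Leaving out both replicate 1 libraries of a line, and the block for the difference of changes, were chosen after seeing the data.

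Same-numbered libraries deviated together within each line (r = 0.66, 0.391 and 0.639 in the Fadd line; 0.203, 0.305 and 0.127 in the Casp8 line) and between the put-back groups (0.317, 0.161 and 0.243). Between the knockout groups they did not (-0.252, 0.0711 and -0.371). For replicate 3 some differently numbered libraries correlated as much. Casp8 knockout replicate 2 with put-back replicate 3 gave 0.144, and Fadd put-back replicate 3 with Casp8 put-back replicate 2 gave 0.245. A pairing by replicate number is read from these correlations, not from a label. Gene positions are from GENCODE M21, which held 55394 of the 55573 gene IDs. The table of endogenous retroviruses was not used here.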

Additional observations from a re-analysis of the deposited data

How the results depend on the processing

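With 3 cultures a group, low counts and the spread between cultures limit what can be called. The number of genes meeting the rule was 28 with TMM-scaled CPM (12 of the 13 members among them), 7 at a ratio of 2, 5 at a floor of 5 TPM, 57 without both Casp8-line replicate 1 libraries, and 11 to 45 leaving out 1 library; 12 to 13 members then kept a ratio of 1.5 in both lines. The members' median log2 ratio was 1.39 in the Fadd line (1.57 with CPM, 1.04 with 1 TPM added, 1.01 without both Fadd-line replicate 1 libraries, 1.08 to 1.51 leaving out 1) and 1.07 in the Casp8 line (0.76 with 1 TPM added, 0.94 to 1.15 leaving out 1). DESeq2 called 697, 143, 2753, 2058 and 420 genes for the Fadd-line, Casp8-line, knockout, put-back and difference contrasts, with 10 and 3 members in the first pair. Without both Fadd-line replicate 1 libraries 111 genes and 1 member passed in the Fadd line, 4 genes in the Casp8 line, 3 members between knockouts, and 638 genes and 2 members between put-back groups. Without both Casp8-line ones there were 524 genes and 6 members, 111 and 2, 3305 genes, 3118 genes, and 391 genes and 1 member in the 5 contrasts. Fitting only the groups compared gave 0 Casp8-line genes, 1046 knockout genes and 3 put-back members; limma-voom also gave 3, and no filter gave 2 Casp8-line genes. The replicate block within each line gave 444, 6 and 239 genes for the Fadd line, Casp8 line and difference; a block over all libraries gave 2050 and 1534 genes between knockout and put-back groups and changed no member's call there. Leaving out 1 library gave 103 to 390, 0 to 22, 829 to 2558, 301 to 2251 and 90 to 241 genes, and 2 to 4, 0 to 0, 3 to 6, 0 to 5 and 0 to 1 members. Signs turned for uncalled values near 0. Between knockouts, 1500009L16Rik reached 0.01 with limma-voom and -0.49 to 0.1 leaving out 1 library, Ripor2 -0.12 to 0.78, and Ccnd2 -0.52 to 0.24 (0.24 also without both Fadd-line replicate 1 libraries). Between put-back groups Rnf227 ranged from -0.18 to 0.5 (-0.18 also without both Casp8-line replicate 1 libraries). The causes were not tested.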

Other observations

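Of the 13 genes, 4 (Zfpm2, Pabpc1, Syngr1 and Zfp385a) lay on chromosome 15, which held 4.08% of the 9894 protein-coding genes at the TPM floor, and none of the 18 genes left out by symbol did. The 404 genes of chromosome 15 at the floor had a median log2 change of 0.13 in the Fadd line, with 69.8% above 0, and of 0.06 in the Casp8 line, with 60.9% above 0. On chromosome 13, which held Ripor2 and Gcnt4, the median was 0.13 in the Fadd line with 77.0% above 0, and 0.01 in the Casp8 line with 53.1% above 0. Chromosome 12, which held no member, had 0.09 with 69.6% above 0 in the Fadd line. Chromosome 16, also with no member, had -0.28 with 8.98% above 0 there. The part of these values in the members' ratios was not tested.

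With TMM-scaled CPM, 16 genes met the rule that did not meet it with TPM. They were Apol9b, Arhgap26, Bcl3, Casp4, Gch1, Gspt2, Iigp1, Kcnk2, Plek2, Rasl10a, Slc17a7, Tmco4, Tnfaip2, Tnfrsf11a, Trim71 and Vcam1, named after their values were seen.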
